A study of Mus musculus with 4 samples.

Results

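The stretch of mouse chromosome 5 from 55 to 61 Mb (mm9) was examined in a map of MBD1 in the dentate gyrus. It held 357 of the 37778 peaks of the deposited list, counted by peak midpoint. The stretch was chosen by its measured peak density and proposed as the densest window of the list, a rank that was not checked here. Its peak number and every enrichment value below are therefore a description and carry no test. The tissue came from C57BL6 mice about 9 weeks old of a line with FLAG-tagged Mbd1, which all 4 libraries share. An antibody against FLAG was used for 2 of them (ChIP), and 2 input libraries were made with none. The sources used here do not say how the tag was introduced, how many animals a library represents or their sex, and there is no anti-FLAG ChIP from untagged mice among the 4 libraries. A peak list cannot be checked against marker genes of the dentate gyrus. The list has 1 set of values for all libraries together, so no value could be set against replicate error, and the intervals given are 95% intervals of counting error or of the spread over peaks. The log2 ratio, the p and the quality flag of a peak are the authors' own values.

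MBD1 belongs to the family of proteins with a methyl-CpG-binding domain. It recognises methylated CpG in DNA, carries zinc fingers of the CXXC type, and acts mainly in transcriptional repression and heterochromatin. In the dentate gyrus, where neural stem cells produce granule neurons throughout life, it is known for its part in adult neurogenesis. Pcdh7 encodes protocadherin 7, a cell adhesion protein of the cadherin superfamily that is expressed in the brain. Like many genes of this kind it lies alone in a long stretch with few other genes.

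In the RefSeq gene order of build GRCm38.p6, used here for names and order only because the peaks are on mm9, the protein-coding neighbours of Pcdh7 are Stim2, which encodes a calcium sensor of the endoplasmic reticulum, and G6pd2, which encodes a form of glucose-6-phosphate dehydrogenase. Beyond G6pd2 follows Arap2, which encodes a GTPase-activating protein. Pcdh7 is the 1 protein-coding gene between Stim2 and G6pd2. The other 36 entries between them are 20 pseudogenes, 8 long non-coding RNAs, 5 snoRNAs and 3 snRNAs. Which of these entries fall inside the mm9 window was not analysed here. Stretches described below as outside Pcdh7 are therefore free of the Pcdh7 interval, not of every annotated transcript. The Pcdh7 interval was taken as 58.1 to 58.5 Mb, with borders rounded to 0.1 Mb, which divides the window into 3.1 Mb before the gene, 0.4 Mb of the gene and 2.5 Mb after it.

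The bases before the start of a RefSeq transcript of Pcdh7 are shown because MBD1 recognises CpG. The rounded value of 58.1 Mb for the start of Pcdh7 lay inside a gap without peaks of 61042 bp, from chr5:58081558-58142599. The 250 bases before the start (RefSeq, GRCm38.p6, plus strand), with each CG in capitals, are:

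Pcdh7 promoter: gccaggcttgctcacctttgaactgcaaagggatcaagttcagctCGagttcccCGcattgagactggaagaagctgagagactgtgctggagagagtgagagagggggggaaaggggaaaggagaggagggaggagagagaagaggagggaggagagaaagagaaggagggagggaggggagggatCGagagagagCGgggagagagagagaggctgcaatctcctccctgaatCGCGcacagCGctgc

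This sequence has a GC content of 58.4% and 7 CG dinucleotides. In the same 250-base window of 32851 RefSeq promoters the median was 6, and 46.3% had 7 or more. CG occurred at least once in 92.1% of them. The letters TCGCA and TGCGCA, both of which contain CG, were searched on both strands and have no match in this window, while they occur in 13.9% and 6.43% of all promoters. Because the interval of Pcdh7 is rounded and the sequence is from another build, whether a peak overlaps this sequence was not measured.

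The window as a whole was covered by peaks over 2.35 Mb, or 39.2% of its length, with 59.5 peaks per Mb. Over the span of the autosomes the list had 15.6 peaks per Mb and 6.14% of bases under peaks. Enrichment within the peaks was moderate. The deposited log2 ratio of ChIP over scaled input had a median of 1.25 (95% interval 1.20 to 1.29), from 0.61 to 3.18 over the 357 peaks, beside 1.20 in the whole list. The median peak had 58.3 ChIP reads per bin of about 200 bp and 11.5 input reads, which the authors' scaling to ChIP turned into 27.8. ChIP summed over all 357 peaks was 2.02 times the summed scaled input (2.01 to 2.03). A dense cover by peaks thus stood beside a ratio close to that of the list.

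What did vary along the window was the width, the depth and the spacing of peaks, with changes at Pcdh7 or just beyond it. Before the gene, peaks were narrower than after it and had lower input. From 58.5 to 61 Mb as a whole they were wider, closer together and higher in both ChIP and input. The greater width began at 59 Mb, not at the border of the gene. Over the gene itself peaks were fewer than in the rest of the window, at a density near that of the autosomes.

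Peak number by step of 0.5 Mb began at 24 from 55 to 55.5 Mb and was 28, 34, 29, 32 and 37 in the following steps up to 58 Mb. It was 10 in the step from 58 to 58.5 Mb, which holds the Pcdh7 interval. From 58.5 Mb on, the steps had 27, 32, 35, 36 and 33 peaks. Outside the step of Pcdh7, the peak number thus ranged from 24 to 37.

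The share of bases under peaks followed another course. It lay between 19.7% and 33.8% in the 6 steps before 58 Mb, was 8.93% from 58 to 58.5 Mb and 32.2% from 58.5 to 59 Mb. In the next 4 steps it was 61.4%, 58.5%, 67.8% and 69.7%. All 4 steps from 59 to 61 Mb were above every other step of the window. Among 4365 steps of this size on the autosomes that hold any bases under peaks, where the median share was 2.88%, these 4 had ranks 5, 7, 4 and 3 by covered bases. The 2 steps ranked above all of them lay on chromosome 17, from 59.5 and from 60 Mb, with 75.2% and 71.6%.

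**Figure D1:**
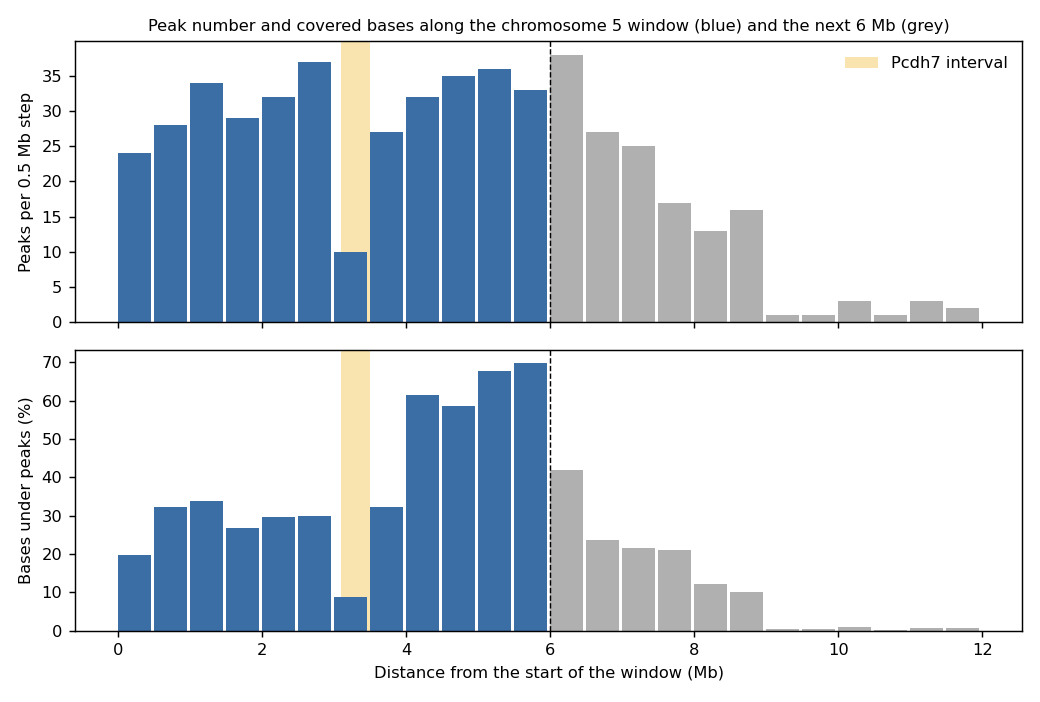
Number of peaks (top) and percentage of bases under peaks (bottom) in steps of 0.5 Mb, by distance in Mb from the start of the window; blue bars are the window, grey bars the next 6 Mb, the yellow band is the Pcdh7 interval and the dashed line the end of the window. The step with Pcdh7 has 10 peaks, and covered bases reach 69.7% in the last step of the window while the peak number there is 33.

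The Pcdh7 interval held 7 peaks, 1.96% of the peaks of the window on 6.67% of its length. This is 17.5 peaks per Mb against 62.5 in the rest of the window, a ratio of 0.280 (counting interval 0.112 to 0.583). Against the stretch before the gene the ratio was 0.290 (0.115 to 0.610), and against the stretch after it 0.268 (0.106 to 0.566). Peaks covered 5.70% of the interval and 41.6% of the rest. Over the autosomes the density was 15.6 per Mb and 6.14% of bases lay under peaks. The interval was thus sparse beside its dense surroundings, which were chosen for density, and not beside the autosomes. With the list limited to a mean p (the p of a peak averaged over its bins) of at most 0.05, 1 peak in Pcdh7 was left and the ratio to the rest of the window was 0.286 (0.00709 to 1.67).

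The 7 peaks in Pcdh7 were close in log2 ratio, but ranged from 50.5 to 77.9 ChIP reads per bin and from 1393 to 3939 bp in width. Their log2 ratios ran from 0.93 to 1.30 with a median of 1.00, and 6 of the 7 had more input than the median peak of the window. The first, chr5:58142600-58143992, was the narrowest at 1393 bp. It had 77.9 ChIP reads per bin, among the 5 highest values of the window, but also 38.7 scaled input reads, so that its summed ChIP was 2.01 times the scaled input (1.64 to 2.49). The peak with the largest log2 ratio in the gene, chr5:58369547-58373478, had 50.5 ChIP reads over 25.8 of scaled input and a log2 ratio of 1.30. Summed over its bins the ratio was 1.96 (1.69 to 2.27).

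The widest peak in Pcdh7, chr5:58332492-58336430, had 3939 bp, 63.3 ChIP reads per bin and a 1.70-fold ratio (1.51 to 1.93). It was the 1 peak of the gene whose mean p was at most 0.05. The authors' quality flag, which coincided with a smallest p of at most 0.0001 in the list, was carried by 2 of the 7, the peak with the largest ratio and chr5:58351600-58355399 with a 1.97-fold ratio (1.72 to 2.26). The lowest log2 ratio in the gene was 0.93, at chr5:58243200-58247067, with 57.8 ChIP reads over 33.5 of scaled input. The other 2 peaks, chr5:58165818-58168493 (named after its values were seen) and chr5:58458200-58461383, had folds of 1.94 (1.65 to 2.29) and 1.93 (1.66 to 2.27). All 7 counting intervals of these folds overlapped, so the peaks of the gene could not be ordered by enrichment.

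Of the gaps between neighbouring peaks, the 3 longest in the window all lay inside the Pcdh7 interval. They were 85424 bp from chr5:58247068-58332491, 84721 bp from chr5:58373479-58458199 and 74706 bp from chr5:58168494-58243199. The gap of 61042 bp around the rounded gene start was the fifth longest. The median gap was 8736 bp before the gene and 3791 bp after it, against 19277 bp on the autosomes. Peaks of the gene thus stood far apart, and those after it stood closest.

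Counted over the full list, peak density was similar before and after Pcdh7, while the peaks differed. Before the gene there were 187 peaks, 60.3 per Mb, and after it 163 peaks, 65.2 per Mb, a ratio of 1.08 whose counting interval of 0.871 to 1.34 includes 1. In alternatives added after seeing the data the ratio was 8.89 (3.77 to 25.5) among peaks with a mean p of at most 0.05, 2.18 (1.55 to 3.11) among those with the quality flag and 4.92 (3.34 to 7.45) among those with ChIP at or above the median of the list. That median, 58.8 reads per bin, lay between the ChIP medians of the sides. The limit kept 33 of 187 peaks before and 131 of 163 after, so its ratio restates the difference in ChIP. Covered bases were 28.5% before and 57.9% after, which is 2.03 times as much. The peaks themselves differed in width. The median was 3489 bp before (interquartile range 2508 to 5371 bp) and 6575 bp after (4054 to 11245 bp), 1.88 times as wide. By step it was 3328 to 4341.5 bp before 58 Mb, 4166 bp from 58.5 to 59 Mb and 6515 to 7484.5 bp from 59 to 61 Mb. Over the whole list it was 3085 bp, below both sides. Peaks of 10 kb or more, which are 4.30% of the list, numbered 18 of 187 before (9.63%, exact interval 5.81 to 14.8%), 0 of 7 in the gene and 47 of 163 after (28.8%, 22.0 to 36.4%). In the step from 58.5 to 59 Mb, 3 of 27 peaks reached this width.

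The widest peaks were nearly all on the far side of the gene. Of 13 peaks of 20 kb or more, a width that 0.365% of the list reaches, 12 lay after Pcdh7 and 1 before it. The widest, chr5:60512041-60546599, had 34559 bp and was the 12th widest of 37637 autosomal peaks. It had 65.5 ChIP reads per bin and summed ChIP of 2.02 times the scaled input (1.93 to 2.11). Its neighbour chr5:60464200-60496394, at 32195 bp, had a 2.01-fold ratio (1.91 to 2.10). The other 3 of the 5 widest were chr5:59612886-59644444 with 1.85-fold (1.77 to 1.94), chr5:60958719-60989787 with 1.87-fold (1.78 to 1.96) and chr5:59519520-59549145 with 2.05-fold (1.95 to 2.15). The folds of these 5 wide peaks, from 1.85 to 2.05, lay near the 2.02 of all peaks of the window.

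**Figure D2:**
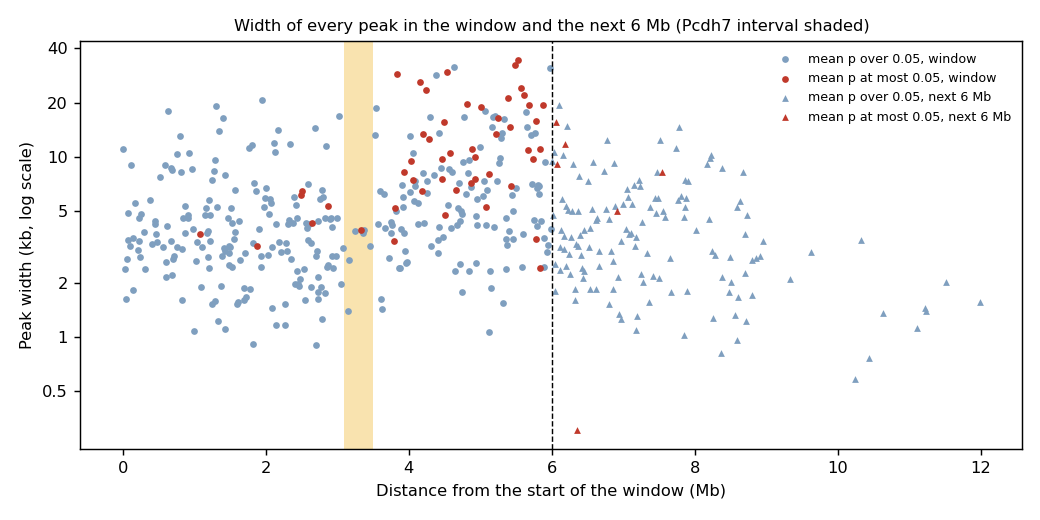
Width of every peak (kb, log scale) by distance in Mb from the start of the window; circles are peaks of the window, triangles those of the next 6 Mb, red marks a mean p of at most 0.05, the yellow band is the Pcdh7 interval and the dashed line the end of the window. Of the 13 peaks of 20 kb or more, 12 lie after the yellow band, where most red circles also stand.

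ChIP and input differed between the sides of the gene as well, input more than ChIP. The median ChIP value was 54.9 reads per bin before the gene (interquartile range 51.6 to 57.5) and 62.4 after it (59.7 to 65.7), 1.14 times as high. The median input was 9.94 reads per bin before (7.90 to 11.5) and 13.4 after (11.7 to 14.7), 1.35 times as high. For neither measure did the interquartile ranges of the sides overlap. Of the peaks after Pcdh7, 136 of 163 had more ChIP than the median peak of the window and 124 had more input, against 38 and 46 of the 187 before it. The highest ChIP count in any bin of a peak had a median of 78 before and 96 after. Wider peaks offer more bins for this maximum, and it was not compared at like width.

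Because input, the denominator, was higher by more than ChIP, the log2 ratio was lower after the gene. Its median was 1.38 before (1.30 to 1.45), 1.00 in the gene and 1.16 after (1.10 to 1.19). The size of this difference depended on which peaks were kept, in alternatives also added after seeing the data. The medians before and after were 1.17 and 1.12 with ChIP at or above the median of the list, 1.64 and 1.18 with the quality flag, and 1.85 and 1.18 with a mean p of at most 0.05, the last on 6 peaks before the gene. Summed over peaks, ChIP was 2.21 times the scaled input before (2.19 to 2.24), 1.86 times in the gene (1.77 to 1.97) and 1.93 times after (1.92 to 1.94). Peaks within a limited range of width, not matched inside it, showed the same order. Among peaks of 3 to 6 kb, 81 before and 48 after, the medians were 54.9 and 62.4 ChIP reads, 10.2 and 12.8 input reads, and 1.29 and 1.18 for the log2 ratio. So the order of the sides held in this range of width, with smaller differences in input and ratio than over all peaks.

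Across peaks the ratio followed input. Spearman's rho of the deposited log2 ratio with input was -0.92 over the 187 peaks before the gene and -0.89 over the 163 after it, while with ChIP it was -0.51 and -0.16. ChIP and input rose together, with rho 0.62 and 0.45. The ratio and input had a rho of -0.85 over the whole list and -0.94 from 61 to 67 Mb, and ChIP and input one of 0.68 over the list. These relations were thus not particular to the window. Peaks share libraries, and the ratio contains both measures, so these are descriptions with no p. Base composition and mappability of the peaks, which can move with input, were not analysed here.

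**Figure D3:**
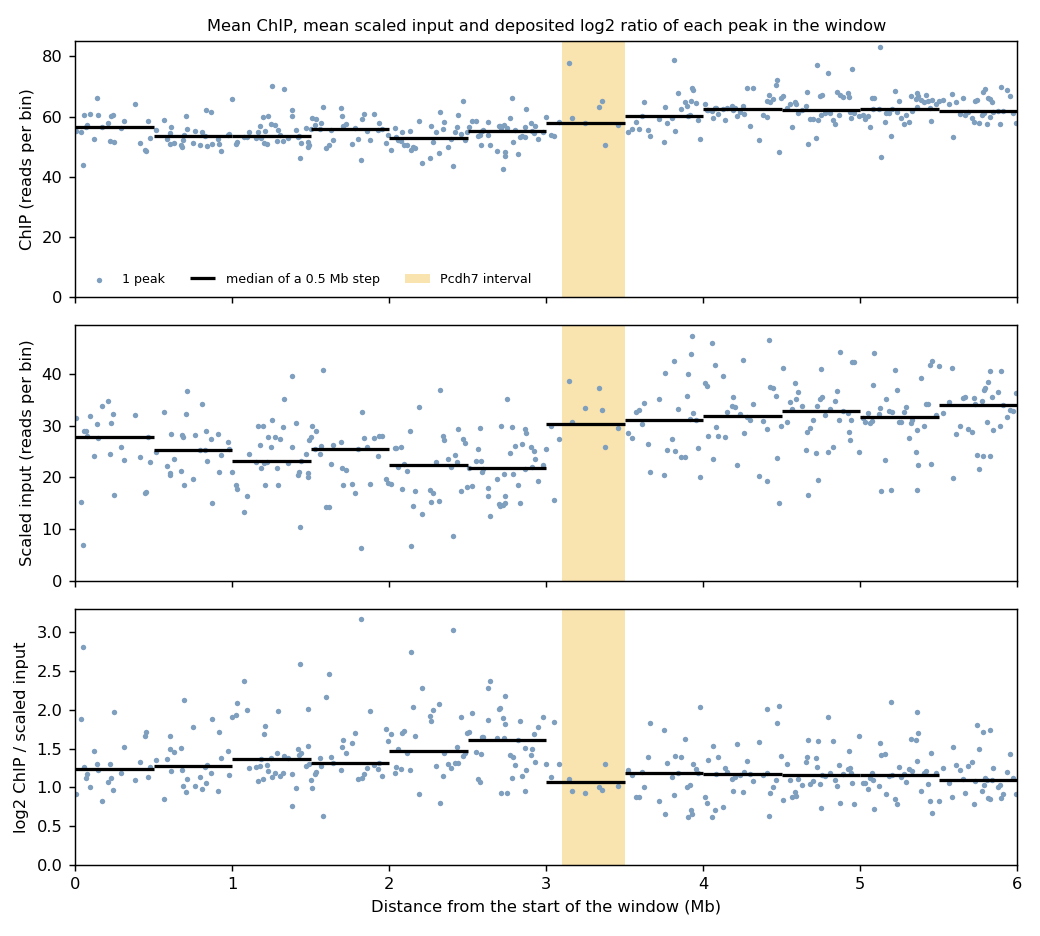
Mean ChIP reads per bin (top), mean scaled input reads per bin (middle) and deposited log2 ratio (bottom) of each of the 357 peaks by distance in Mb from the start of the window; dots are peaks, black lines the medians of 0.5 Mb steps and the yellow band the Pcdh7 interval. The step median of scaled input is 21.8 in the last step before the gene and 30.4 to 33.9 from the step of the gene on, and that of the ratio is 1.61 and 1.07 to 1.19.

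Before the gene the ratio also changed by step. Its median was 1.24 from 55 to 55.5 Mb, then 1.28, 1.37, 1.31 and 1.47, and reached 1.61 from 57.5 to 58 Mb. The median input went from 11.5 reads per bin in the first of these steps to 9.03 in the last. In the step of Pcdh7 the ratio was 1.07 and the input 12.5. In the 5 steps from 58.5 Mb the ratio stayed between 1.09 and 1.19 and the input between 12.9 and 14.02. The highest step median of the ratio therefore adjoined the step with the lowest.

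Peaks with a log2 ratio above 2, which make up 7.73% of the list, numbered 25 in the window (7.003%). Of these, 21 lay before the gene (11.2% of its 187 peaks, exact interval 7.09 to 16.7%), none in it and 4 after it (2.45%, 0.673 to 6.16%). All of the 10 largest ratios were before Pcdh7. The largest was at chr5:56817849-56818759, a narrow peak of 911 bp with 45.6 ChIP and 6.29 scaled input reads per bin and a log2 ratio of 3.18. It rests on 13 input counts, and its fold was 7.25 (4.16 to 13.8). The next, chr5:57403200-57405165, had a log2 ratio of 3.03 and a fold of 5.02 (3.57 to 7.26), and chr5:55050649-55052268 had 2.81 and 6.28 (4.22 to 9.73). At chr5:57140200-57141370 the fold was 7.15 (4.39 to 12.4) on 17 input counts. In these 4 peaks ChIP was 43.7 to 49.0 reads per bin, below the median of the window, over input that was lower still.

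Some of the 10 rested on more reads. The peak chr5:57642814-57647084, 4271 bp wide, had 1114 ChIP and 115 input counts, a 4.004-fold ratio (3.30 to 4.89) and a mean p of 0.0313. The peak chr5:56074637-56078360 had a 4.03-fold ratio (3.29 to 4.98) and a mean p of 0.0479. These were the 2 of the 10 with a mean p under 0.05. The remaining 4 had folds between 3.25 and 4.40. They lay at chr5:56429830-56430937, chr5:56616041-56617599, chr5:57205917-57208886 and chr5:57631712-57633597. In the 2 steps before 58.5 Mb not yet named, from 55.5 Mb and from 58 Mb, the largest ratios were 2.13 at chr5:55694596-55696799 and 1.85 at chr5:58050431-58052399.

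After the gene the peaks with the largest ratio of their step were less extreme. They had log2 ratios of 2.04 at chr5:58975927-58978537, 2.05 at chr5:59483200-59486779, 1.91 at chr5:59791650-59797893, 2.10 at chr5:60191329-60195391 and 1.81 at chr5:60744000-60748439. Their folds lay between 2.62 and 3.21. The peak at chr5:59791650-59797893 had 158 ChIP reads in its highest bin, more than any other peak of the window. The 3 lowest ratios of the window were 0.61 at chr5:59048582-59059147 and chr5:58899400-58906362 and 0.63 at chr5:56574077-56577923. The first of these held 3344 ChIP and 1028 input counts, a fold of 1.34 (1.25 to 1.44), so weak enrichment there was measured with many reads.

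In ChIP level alone the stretch after the gene led. Of the 5 peaks with the highest ChIP, 4 lay there and 1 in Pcdh7, and none before it. The highest, chr5:60126451-60127509, had 83.0 reads per bin in 1059 bp and a 2.48-fold ratio (1.96 to 3.17). It was followed by chr5:58811819-58816999 with 78.8 reads and 1.85-fold (1.67 to 2.06). At chr5:59722402-59724939 the values were 77.3 reads and 2.28-fold (1.95 to 2.69), and at chr5:59946200-59950367 75.8 reads and 1.79-fold (1.59 to 2.01). None of these 5 peaks was among the 10 with the largest ratios, all of which lay before the gene. High ChIP did not exclude a high ratio, however. The peak with the highest ChIP had a log2 ratio of 1.57, above the window's upper quartile of 1.52. The peak chr5:59791650-59797893, also after the gene, had 74.5 reads and a log2 ratio of 1.91.

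**Figure D4:**
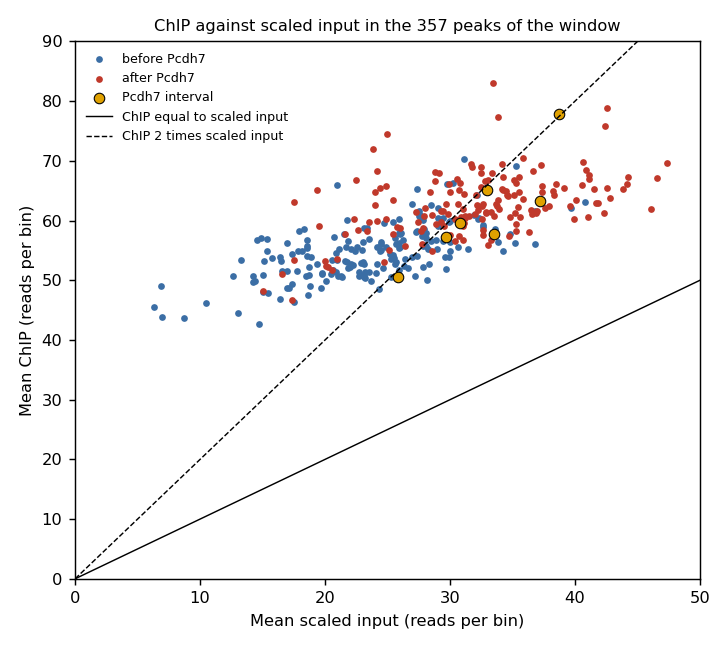
Mean ChIP against mean scaled input, both in reads per bin, for the 357 peaks of the window; blue dots are peaks before Pcdh7, red dots after it, outlined yellow dots in it, the solid line marks ChIP equal to scaled input and the dashed line ChIP of 2 times scaled input. Peaks after the gene lie further up and to the right, with medians of 62.4 ChIP and 32.5 scaled input reads against 54.9 and 24.1 before it.

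The quality flag and a small mean p were more frequent on the side with wider peaks and lower ratios. In the window 151 peaks carried the flag (42.3%), beside 30.8% of the list, and 50 had a mean p of at most 0.05 (14.01%), beside 3.17%. Because these measures come from the comparison that chose the window, nothing is read from the shares themselves. Within the window, the flag was carried by 54 of 187 peaks before Pcdh7 (28.9%, exact interval 22.5 to 35.9%) and 95 of 163 after it (58.3%, 50.3 to 65.9%). A mean p of at most 0.05 was found in 6 before (3.21%, 1.19 to 6.85%), 1 in the gene and 43 after (26.4%, 19.8 to 33.8%). The side with the lower ratios had the smaller p. Peaks past this limit had a median width of 9873 bp, the others 4168 bp. Among peaks of 3 to 6 kb the limit was met by 4 of 81 before and 5 of 48 after, beside 289 of 12967 in the whole list. The sides thus lay closer to each other in this range of width than over all widths. The sources used here do not say how p was obtained, and the part of width and read depth in it was not tested.

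The next 6 Mb, from 61 to 67 Mb, had 147 peaks, 24.5 per Mb and 11.2% of bases under peaks. The density of the window was 2.43 times as high (2.00 to 2.96) and its covered share 3.50 times. Among peaks with a mean p of at most 0.05 the density ratio was 8.33 (3.57 to 23.8). This stretch was not even. From 61 to 61.5 Mb it had 38 peaks, more than any step of the window, which covered 41.9%, and its median width was 3678 bp. The next 5 steps held 27, 25, 17, 13 and 16 peaks, and from 64 Mb on each step had 1 to 3. Beyond Pcdh7 the covered share was thus highest just before 61 Mb and lower in the following 0.5 Mb, while peak number was lower only after that.

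From 61.5 to 62.5 Mb the peaks resembled those before Pcdh7. The median input in these 2 steps was 8.77 and 9.24 reads per bin and the median log2 ratio 1.57 and 1.46. This input lay below that of every step from 58 to 61 Mb, where the medians were 12.5 to 14.02 reads. Over the whole of 61 to 67 Mb the median ChIP value was 56.8 reads, the median input 10.9 and the median log2 ratio 1.32 (1.21 to 1.40), whose interval overlapped the 1.20 to 1.29 of the window. A mean p of at most 0.05 was found in 6 of 147 peaks (4.08%, 1.51 to 8.67%), of which 4 lay in the first 0.5 Mb.

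The borders of the window cut through a continuing series of peaks. The last peak outside its start, chr5:54983014-54995489, had a log2 ratio of 1.01, and the first inside, chr5:54999807-55010799, had 0.91. At the far end the last peak inside, chr5:60991000-60994989, had 0.91 and the first outside, chr5:61003016-61012533, had 1.21. Peaks on each side of a border were 12.5 and 11.0 kb wide at the start and 3990 and 9518 bp at the end.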

How the data were processed

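Sonicated chromatin of the dentate gyrus gave 2 anti-FLAG ChIP and 2 input libraries with an average size of 350 bp and single reads of 100 bp, per the labels' protocols. The submitters' processing notes name Bowtie 0.12.7 and mm9. A peak caller is not given in the sources used. The deposited list pools all libraries. Its mean ChIP, mean input and scaled input are signal in reads per bin, and the highest bin of a peak is a count, per the file headers. The log2 values were deposited as a mean over bins of the ratio to scaled input, and the −log10 values were read from the file headers as those of the mean and smallest p-value of a peak's bins. The input was scaled by the authors by a constant of 2.42. Library totals, and so the depth, are unknown.

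Window, Pcdh7 interval and comparison stretch were set by midpoint, with covered bases clipped to each stretch. The members and lists were chosen with earlier results of these data known. Bins per peak were inferred as the number nearest to width over 200 bp that made both sums whole within 1e-06 reads, which differed from width over 200 by -0.33 to 1.75; summed counts rest on this. Folds have exact binomial, shares exact Clopper-Pearson, density ratios exact conditional and medians binomial intervals, all at 95%. Those of folds and density ratios cover counting error only, and those of medians and shares the spread over peaks taken as separate. Reads without molecular identifiers are not separate molecules, and 1 read may be counted in neighbouring bins. Fold intervals may therefore be too narrow even for counting error. No test was made. Peaks were named by rule: in the window the 10 largest log2 ratios, the 5 widest, the 5 highest in ChIP, the 3 lowest ratios, the 3 longest gaps and the largest ratio of each step, and in Pcdh7 the 5 largest ratios and the 3 widest; border peaks are named beside the rule. Alternatives were stricter p, quality flag, higher ChIP, merging, removal of peaks with very low input and other borders. The calculations were tested on simulated data. There, peak widths lay nearer to whole numbers of bins than in the list, so the inferred bins of these data were not tested. Intervals were computed with scipy 1.17.1, tables with pandas 2.3.3 and numpy 2.4.6 under Python 3.11.15, and plots with matplotlib 3.10.9.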

Additional observations from a re-analysis of the deposited data

How the results depend on the processing

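Limiting the list to a mean p of at most 0.05 left 50 peaks and 0.627 Mb in the window, the quality flag 151 peaks and 1.42 Mb, and ChIP at or above the list's median 168 peaks and 1.33 Mb; fewer peaks follow from the limits. The ratio of the window to 61 to 67 Mb became 8.33, 3.43 and 3, and that of the stretch after Pcdh7 to the one before it, a comparison added with its alternatives after seeing the data, 8.89, 2.18 and 4.92. So the even density on the sides of the gene held for the full list and the merged list (1.05). It also held without the peaks lowest in input, below 0.25 times its median over the list (1.10, with 3 such peaks in the window). It did not hold under these 3 limits, of which the one on ChIP restates the difference in ChIP between the sides. The cause was not tested. The density in Pcdh7 relative to the rest stayed between 0.188 and 0.367 in all 8 alternatives, though with the mean p limit it rests on 1 peak (0.286, 0.00709 to 1.67). The densest step had 3.70 times the peaks of the sparsest, and 1.86 times with 1 Mb steps. The median log2 ratio was 1.06 recomputed from mean counts with 1 added to each, and, in alternatives added after seeing the data, 1.19 with the mean p limit, 1.30 with the flag and 1.13 with higher ChIP. No paired analysis was possible because libraries are pooled in every deposited value, and no replicate could be left out either.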
